A study of Mus musculus with 6 samples.

Results

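Activins and inhibins are dimeric hormones of the TGF-beta family, and 9 genes that encode their subunits, antagonists and receptors were followed in cultured newborn mouse ovary exposed to platelet-rich plasma (PRP). The genes were fixed by symbol as Inha, Inhba and Inhbb (subunits), Fst and Fstl3 (antagonists), and Acvr1b, Acvr2a, Acvr2b and Tgfbr3 (receptors). All 9 were present among the 27098 genes of the deposited table, and all 9 passed the filter on low counts that left 17475 genes for testing. Messenger RNA had been sequenced from ovaries of mice 3 days after birth, kept at 37 °C and 5% CO2 in DMEM/F12 with 1% antibiotics. The control libraries CT1, CT2 and CT3 came from ovaries given 2 h of medium alone, and the PRP libraries PRP1, PRP2 and PRP3 from ovaries given 2 h of medium with 2% PRP. By the series description the PRP was of human origin and activated by thrombin, and no group received thrombin alone or another plasma. The labels give neither strain nor genotype nor the number of ovaries per library, and it is left unsaid whether each replicate was its own culture, so p-values measure only the spread between these libraries, which may be technical. The study asked how PRP acts on the activation of primordial follicles, the dormant oocytes with their single layer of pregranulosa cells that fill the ovary at this age.

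Activin is a dimer of beta subunits, and inhibin pairs one beta subunit with the alpha subunit. Activin binds a type II receptor, which recruits and phosphorylates the type I receptor, and the signal passes through SMAD2 and SMAD3 to the nucleus. Follistatin wraps around activin and keeps it from its receptors, while inhibin, held by betaglycan, occupies the type II receptors without starting the signal. In the ovary these proteins are made largely by granulosa cells. They are known for the endocrine control of follicle-stimulating hormone and for local roles in germ cell cyst breakdown and the assembly of follicles.

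The start regions of Inhba and Inhbb are shown because the beta subunit genes were the members that varied most between libraries, and that of Acvr2a because it was the member that varied least. Each sequence holds the 250 bases before the start, from RefSeq on GRCm38.p6, 5′ to 3′ on the gene's strand. Capitals mark a TATA box (TATAAA) in Inhba, a GC box (GGGCGG) in Inhbb, and a pair of GC boxes with 1 SMAD box (CAGAC) in Acvr2a, the GC and SMAD boxes all lying on the other strand.
Inhba, chr13:16011601-16011850, plus strand: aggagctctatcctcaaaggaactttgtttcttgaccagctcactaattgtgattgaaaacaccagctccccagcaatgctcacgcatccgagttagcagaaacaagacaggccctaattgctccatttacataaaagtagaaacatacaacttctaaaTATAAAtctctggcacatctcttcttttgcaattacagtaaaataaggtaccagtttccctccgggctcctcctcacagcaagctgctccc
Inhbb, chr1:119422249-119422498, minus strand: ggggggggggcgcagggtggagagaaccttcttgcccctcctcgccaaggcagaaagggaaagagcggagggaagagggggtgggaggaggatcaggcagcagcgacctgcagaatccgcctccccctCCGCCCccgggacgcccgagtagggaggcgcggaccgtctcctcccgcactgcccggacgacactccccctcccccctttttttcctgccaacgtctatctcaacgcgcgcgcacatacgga
Acvr2a, chr2:48813859-48814108, plus strand: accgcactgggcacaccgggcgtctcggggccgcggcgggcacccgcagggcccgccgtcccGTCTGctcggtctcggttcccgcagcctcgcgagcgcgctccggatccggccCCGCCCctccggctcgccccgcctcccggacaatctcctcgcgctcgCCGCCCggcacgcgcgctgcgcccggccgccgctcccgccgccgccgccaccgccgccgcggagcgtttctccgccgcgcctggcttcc
Start regions were found for 7 of the 9 genes, and these 3 are the ones whose start is also a transcript start in the GENCODE annotation. The RefSeq span of Inhba nevertheless begins further upstream. The spans of Inha and Acvr2b also begin upstream of their regions, so these regions lie inside the gene and not before it. The regions before Inhba and Inhbb differed in composition. The Inhba region was 43.2% G or C with 3 CpG dinucleotides, the Inhbb region 68.0% with 21, and the Acvr2a region 82.0% with 49, where the median over 32851 RefSeq start regions of this length was 52.4% with 6. Of all these regions, 12.4% held TATAAA, 32.7% GGGCGG and 42.2% CAGAC on either strand. Of the 7 members with an entry, 5 held a GC box (Inhbb, Fstl3, Acvr1b, Acvr2a and Acvr2b), and none held a cAMP response element or its core, an AP-1 site, an NR5A1 site, a GATA box or a forkhead site on either strand. The cAMP response element was searched as TGACGTCA, which 1.55% of all regions held, and its core, which the full element contains, as TGACG (17.8% of all regions). The AP-1 site was searched as TGANTCA (6.75%), the NR5A1 site as AAGGTCA (4.08%), the GATA box as AGATAA (9.99%) and the forkhead site as TGTTTAC (3.17%). A match or its absence describes these letters in these regions only, which for Inha, Inhba and Acvr2b lie inside the gene span.

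Library totals ran from 35568000 to 36568367 counts. Markers of the tissue were present, with 10 of 10 granulosa and 12 of 12 oocyte genes counted in every library. CT3 stood apart in red blood cell genes, which summed to 1333 CPM, the count per 1000000 counts of the library, there and to between 108 and 225 CPM in the other libraries. Libraries that carried the same replicate number resembled each other, although no label says that the numbers are pairs. A blocked fit, with the number as a term, is therefore given beside the unpaired fit where it differs. Across all genes the unpaired edgeR fit called 0 of 17475 genes (0%) at an adjusted p of 0.05, and the blocked fit called 21 (0.12%).

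None of the 9 genes passed the test for PRP against control, with or without the block, where the background was 0% and 0.12%. At an unadjusted p under 0.05 the unpaired edgeR fit had 0 of the 9 (3.19% of all genes), as did DESeq2 and limma-voom. The blocked edgeR fit had 2, Inhba and Acvr2b (11.2% of all genes, and 5.91% in the lower direction). These counts depended on the libraries that entered. Without CT3 the unpaired fit had 2, Inha and Acvr2b, where 655 of all 18030 genes tested were under 0.05. Without the libraries numbered 2 the blocked fit had 0 (1576 of all 17653 genes). Without those numbered 3 the blocked fit had 4, Inha, Inhba, Inhbb and Acvr2b (1758 of all 17719 genes). The log2 fold changes of the 9 ranged from -0.26 to 0.15 with a median of -0.02, and the median over all tested genes was 0.00. Acvr2b was the 1 member whose groups did not overlap, a state shared by 9.21% of all genes and, in the lower direction, by 4.85%.

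**Figure D1:**
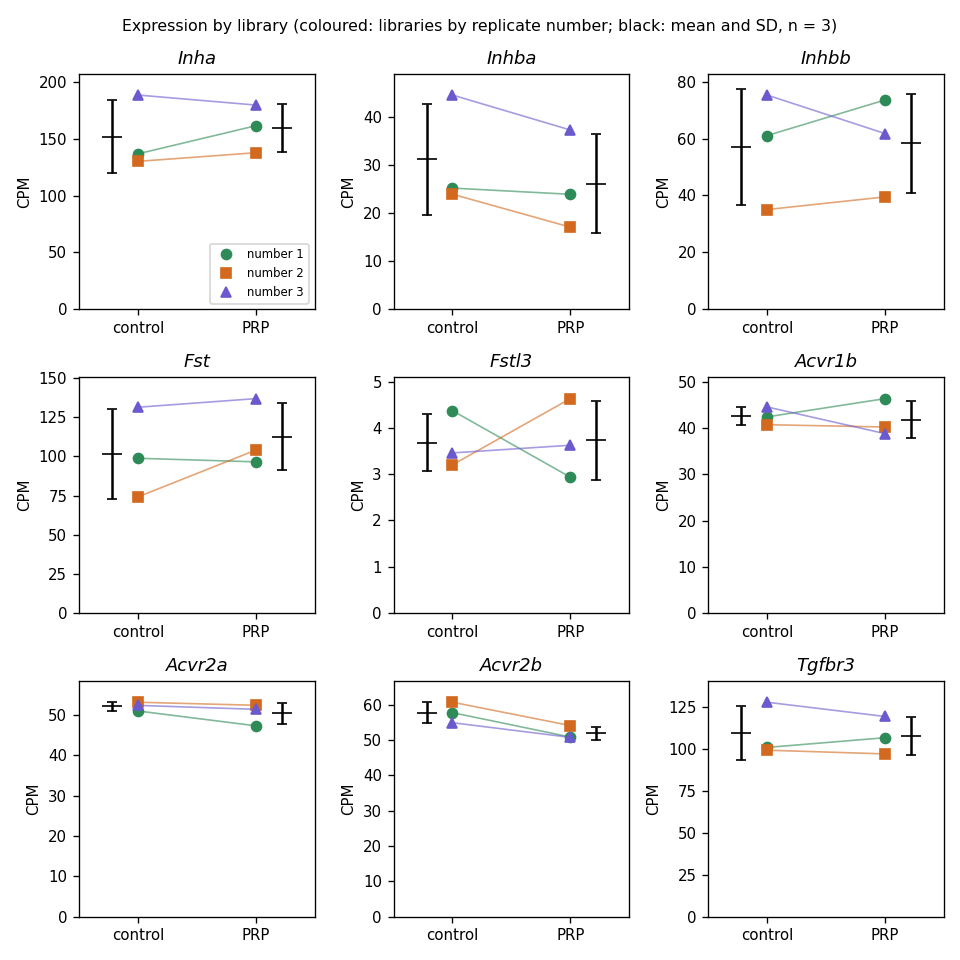
CPM of each of the 9 genes (y axis, from 0) in control and PRP libraries, with coloured symbols and lines for libraries of the same replicate number and black bars for the mean and SD of 3 libraries. Acvr2b is the gene whose 3 PRP points (50.8 to 54.1 CPM) all lie below its 3 control points (54.9 to 60.7 CPM), while Inhba and Inhbb spread widely within both groups.

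The subunit genes gave no called difference. Inha (Entrez 16322, chromosome 1, 75507077 to 75510366), which encodes the alpha subunit that makes a dimer an inhibin, was at 137, 130.0 and 188 CPM in CT1, CT2 and CT3 and at 161, 138 and 180 CPM in PRP1, PRP2 and PRP3. The groups overlapped, and the lowest value of each came from the library numbered 2 and the highest from the library numbered 3. The control mean was 152 ± 32 CPM and the PRP mean 160 ± 21 CPM (SD, n = 3), a log2 fold change of 0.07 ± 0.16 (SE; 95% interval -0.30 to 0.45; edgeR adjusted p = 0.9998). Within the pairs of equal number, Inha was higher with PRP in pairs 1 and 2 (0.24 and 0.08 on the log2 scale) and lower in pair 3 (-0.07). Without CT3 the log2 fold change was 0.26, and it was -0.03 without CT2.

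Inhba (Entrez 16323, chromosome 13, 16004256 to 16031609) encodes the beta-A subunit of activin A and inhibin A. It was at 25.2, 23.9 and 44.6 CPM in CT1, CT2 and CT3 and at 23.9, 17.1 and 37.3 CPM in PRP1, PRP2 and PRP3. The libraries numbered 3 were high in both groups, so that PRP3 exceeded CT1 and CT2 and the groups overlapped. Means were 31.3 ± 11.6 and 26.1 ± 10.3 CPM (SD, n = 3), and the unpaired log2 fold change was -0.26 ± 0.36 (SE; 95% interval -1.13 to 0.62; edgeR adjusted p = 0.9998). Inhba was lower with PRP in each pair, by log2 differences of -0.08, -0.48 and -0.26, and 16.3% of all genes were lower in all 3 pairs. With the block the estimate was -0.27 ± 0.09 (SE; 95% interval -0.47 to -0.08), which did not pass over all genes (edgeR adjusted p = 0.254). Without CT3, the library with the high red blood cell genes, the unpaired estimate turned to 0.09, with PRP3 still included. With both libraries numbered 3 left out, the blocked estimate was -0.28. It was -0.37 without those numbered 1 and -0.17 without those numbered 2. The part of the red blood cell content of CT3 was not tested.

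Inhbb (Entrez 16324, chromosome 1, 119415463 to 119422248) encodes the beta-B subunit of activin B and inhibin B. It was at 61.1, 35.1 and 75.3 CPM in CT1, CT2 and CT3 and at 73.6, 39.5 and 61.8 CPM in PRP1, PRP2 and PRP3. Both libraries numbered 2 lay far below the other 4, and the groups overlapped almost fully. Means were 57.1 ± 20.4 and 58.3 ± 17.3 CPM (SD, n = 3), with a log2 fold change of 0.03 ± 0.35 (SE; 95% interval -0.84 to 0.89; edgeR adjusted p = 0.9998). Pairs 1 and 2 were higher with PRP (0.27 and 0.17 on the log2 scale) and pair 3 was lower (-0.29), so the beta subunit genes differed in opposite directions in pairs 1 and 2 and in the same direction in pair 3. Whether the changes of Inhba and Inhbb differ was not tested. The unpaired estimate for Inhbb was 0.28 without CT3 and -0.22 without CT2.

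On a scale of CPM per kilobase of median transcript length, the summed beta subunit levels amounted to 0.204 ± 0.036 of the alpha subunit level in control and 0.185 ± 0.035 in PRP (SD, n = 3). The ratio was 0.224, 0.162 and 0.227 in CT1, CT2 and CT3 and 0.213, 0.146 and 0.197 in PRP1, PRP2 and PRP3. It was lowest in the libraries numbered 2 in both groups, and the groups overlapped.

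The antagonist Fst (Entrez 14313, chromosome 13, 114452262 to 114458989) encodes follistatin, which binds activin almost irreversibly. It was at 98.8, 74.1 and 131 CPM in CT1, CT2 and CT3 and at 96.5, 104 and 137 CPM in PRP1, PRP2 and PRP3. The libraries numbered 3 were highest in both groups, CT2 was the lowest of the 6, and the groups overlapped. Means were 101 ± 29 and 113 ± 21 CPM (SD, n = 3), with a log2 fold change of 0.15 ± 0.23 (SE; 95% interval -0.41 to 0.71; edgeR adjusted p = 0.9998). The difference was concentrated in pair 2, at 0.49 on the log2 scale, against -0.03 in pair 1 and 0.06 in pair 3. The log2 fold change was 0.38 without CT3 and -0.03 without CT2. Per kilobase, Fst stood at 3.22, 3.50 and 3.06 times the summed beta subunit level in CT1, CT2 and CT3 and at 2.79, 5.16 and 3.86 times in PRP1, PRP2 and PRP3. The PRP libraries held both the lowest and the highest ratio. The means, 3.26 in control and 3.94 in PRP, were 1.93 and 2.28 with the longest transcripts as lengths.

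Fstl3 (Entrez 83554, chromosome 10, 79777274 to 79782630), a follistatin-like binder of activin and myostatin, was the member with the fewest counts, between 107 and 168 per library. It was at 4.37, 3.20 and 3.46 CPM in CT1, CT2 and CT3 and at 2.94, 4.63 and 3.63 CPM in PRP1, PRP2 and PRP3. The PRP group again held both extremes. Its log2 fold change was 0.02 ± 0.25 (SE; 95% interval -0.55 to 0.59; edgeR adjusted p = 0.9998), and pairs 1 and 2 differed by -0.57 and 0.53 in opposite directions.

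Among the receptors, Acvr2b (Entrez 11481, chromosome 9, 119401583 to 119442148), a type II receptor for activins and related ligands, was the most separated. It was at 57.8, 60.7 and 54.9 CPM in CT1, CT2 and CT3 and at 50.9, 54.1 and 50.8 CPM in PRP1, PRP2 and PRP3. All 3 PRP libraries lay below all 3 control libraries, with PRP2 just under CT3. Means were 57.8 ± 2.9 and 51.9 ± 1.9 CPM (SD, n = 3), a log2 fold change of -0.16 ± 0.07 (SE; 95% interval -0.32 to 0.01) that did not pass over all genes (edgeR adjusted p = 0.9998). Pair differences were -0.18, -0.17 and -0.11 on the log2 scale. With the block the 95% interval was -0.28 to -0.03 (edgeR adjusted p = 0.345). Leaving out any 1 library, or any 1 replicate number with the block, gave log2 fold changes of -0.19 to -0.12.

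Acvr2a (Entrez 11480, chromosome 2, 48814109 to 48903264), the other activin type II receptor, was nearly level. It was at 51.0, 53.2 and 52.4 CPM in CT1, CT2 and CT3 and at 47.3, 52.4 and 51.4 CPM in PRP1, PRP2 and PRP3. The groups overlapped, with PRP1 as the lowest library. The log2 fold change was -0.05 ± 0.07 (SE; 95% interval -0.22 to 0.12; edgeR adjusted p = 0.9998), and all 3 pairs were lower with PRP, at -0.11, -0.02 and -0.03. The span of Acvr2a overlaps that of Orc4, which had 1640 to 2016 counts per library, and the counting is not stated to use strand, so reads in the shared stretch may belong to either gene. The spans of Fst and Fstl3 also overlap another gene, each with at most 15 counts in any library.

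Acvr1b (Entrez 11479, chromosome 15, 101174072 to 101213684) encodes ALK4, the type I receptor that carries the activin signal to SMAD2 and SMAD3. It was at 42.4, 40.7 and 44.6 CPM in CT1, CT2 and CT3 and at 46.4, 40.2 and 38.8 CPM in PRP1, PRP2 and PRP3. The highest and the lowest library were both in the PRP group, and the log2 fold change was -0.03 ± 0.09 (SE; 95% interval -0.23 to 0.18; edgeR adjusted p = 0.9998). Tgfbr3 (Entrez 21814, chromosome 5, 107106567 to 107289629) encodes betaglycan, the co-receptor that gives inhibin its hold on type II receptors. It was at 101, 99.4 and 128 CPM in CT1, CT2 and CT3 and at 107, 97.1 and 120 CPM in PRP1, PRP2 and PRP3. The libraries numbered 3 were highest in both groups, the groups overlapped, and the log2 fold change was -0.02 ± 0.11 (SE; 95% interval -0.28 to 0.24; edgeR adjusted p = 0.9998).

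**Figure D2:**
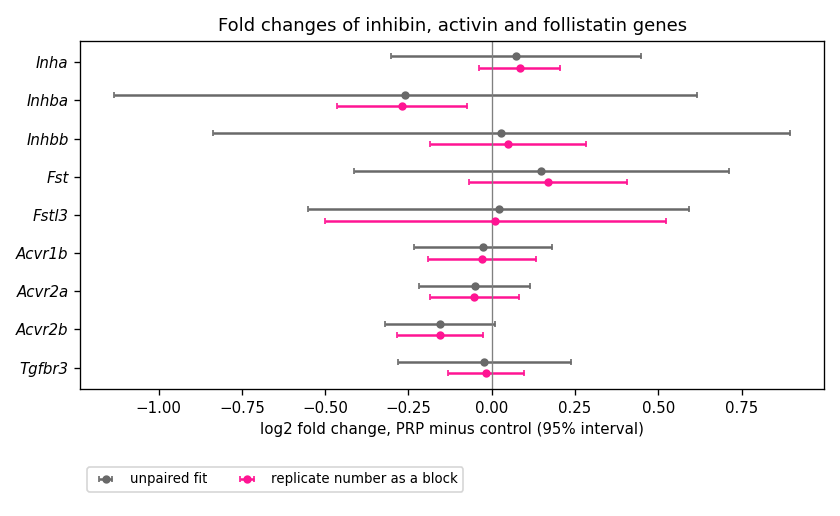
Log2 fold change, PRP minus control, with its 95% interval (x axis) for each of the 9 genes, from the unpaired fit (grey) and the blocked fit (pink). All 9 unpaired intervals include 0, and the blocked intervals of Inhba (-0.47 to -0.08) and Acvr2b (-0.28 to -0.03) lie below it without passing over all genes. The blocked fit gave narrower intervals that included 0 for Inha (-0.04 to 0.21) and Inhbb (-0.18 to 0.28). It did so too for Fst (-0.07 to 0.41) and Tgfbr3 (-0.13 to 0.10).

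The members differed in how far they varied and in what the variation followed. Inhba spanned a 2.61-fold range from its lowest to its highest library, Inhbb 2.15-fold, Fst 1.85-fold and Inha 1.45-fold, whereas Acvr1b, Acvr2a and Acvr2b spanned 1.20-fold, 1.12-fold and 1.20-fold. The median over all tested genes was 1.37-fold. The replicate number took 93.3% of the variance of log2 CPM in Tgfbr3, 91.5% in Inhbb, 87.6% in Inhba and 86.4% in Inha, 4 of 9 members above 80%, where 21.2% of all genes lay above 80% and the median was 55.7%. It took 76.8% in Fst, 64.7% in Acvr2a and 39.1% in Acvr1b, 28.3% in Acvr2b and 5.26% in Fstl3. Treatment took 69.2% in Acvr2b and 22.4% in Acvr2a, at most 8.97% in each of the others, and 11.3% in the median gene.

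**Figure D3:**
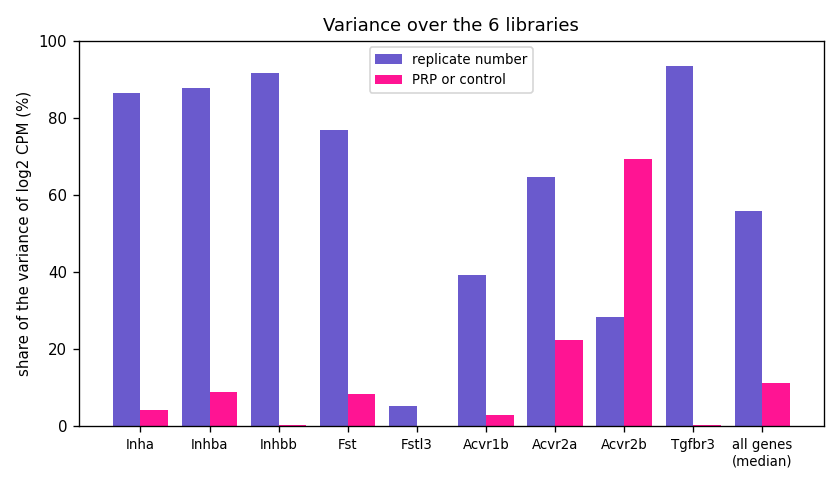
Share of the variance of log2 CPM over the 6 libraries (y axis, percent) that followed the replicate number (purple) or the treatment (pink), for each of the 9 genes and as the median of 17475 genes. Inha, Inhba, Inhbb and Tgfbr3 stand above 80% for the number, and Acvr2b is the member with a larger share for treatment (69.2%) than for the number (28.3%).

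In Inha, Inhba, Inhbb and Tgfbr3 the library numbered 2 was the lowest of its group in both groups, as it was in 20.1% of all genes. The summed CPM of the granulosa markers was also lowest in CT2 (609) and PRP2 (641), against 656 to 712 in the other libraries, and that of the oocyte markers was 2693 and 2974 there, against 3680 to 4517. The same libraries were lowest in their groups for 7 of 9 marker lists, the others being those of stromal, steroidogenic, endothelial, mural and leukocyte genes. Surface epithelium and red blood cell markers did not follow this order. Surface epithelium markers summed to 167, 178 and 171 CPM in CT1, CT2 and CT3. In PRP1, PRP2 and PRP3 they summed to 187, 214 and 203 CPM, without overlap. Taken singly, 2 of these 6 markers did not overlap between groups, a state shared by 9.21% of all genes. The means were 59.8 CPM in control and 77.3 CPM in PRP for Krt19, and 18.5 and 18.4 CPM for Msln. Stromal markers summed to 7429 to 9156 CPM in control and 7983 to 9603 CPM in PRP. In the blocked edgeR fit 2 of 12 oocyte markers (Zp2 and Zp3) and 1 of 6 surface epithelium markers (Krt19) rose over all genes. That fit called 0.12% of all genes, and blocked limma-voom and the blocked fit without robust estimation called 0. At an unadjusted p under 0.05 blocked edgeR had 7 of 8 stromal and 4 of 12 oocyte markers higher with PRP. The same held for 3 of 6 surface epithelium and 2 of 6 mural markers, while 1 of 7 tested steroidogenic markers (Star) was lower. Of all genes, 11.2% were under 0.05 in either direction and 5.91% in the lower direction. The part of these markers in the levels of the members was not tested, and in whole ovary fewer cells of a type and less RNA per cell cannot be told apart.

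Levels of the 9 genes were ordered by CPM per kilobase of median transcript length. Inha was highest, with 88.1 to 128 over the 6 libraries, followed by Fst (50.0 to 92.4), Tgfbr3 (46.1 to 60.7) and Acvr2b (43.6 to 52.2). Acvr2a (13.7 to 15.3), Inhbb (8.24 to 17.7), Acvr1b (8.78 to 10.5) and Inhba (4.32 to 11.3) followed, and Fstl3 was lowest (1.90 to 2.99). On this length the ranges of neighbours overlapped except between Acvr2b and Acvr2a and between Inhba and Fstl3. Among 16086 tested genes with a length, Inha lay at percentile 87.8, Fst at 81.9, Inhbb at 48.1, Inhba at 37.4 and Fstl3 at 24.3. With the longest transcript as the length, 6 of the 9 genes kept their rank, and Acvr2a moved from rank 5 to rank 7. Acvr2b then ranged from 16.0 to 19.1, which overlapped Inhbb (8.24 to 17.7), so the gap below Acvr2b rests on the median length. Inha stood apart from Fst (25.4 to 46.9) and Fst from Tgfbr3 (16.0 to 21.0) on the longest length, as did Acvr2a (8.33 to 9.35) from Inhba (2.68 to 6.98) and Inhba from Fstl3.

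**Figure D4:**
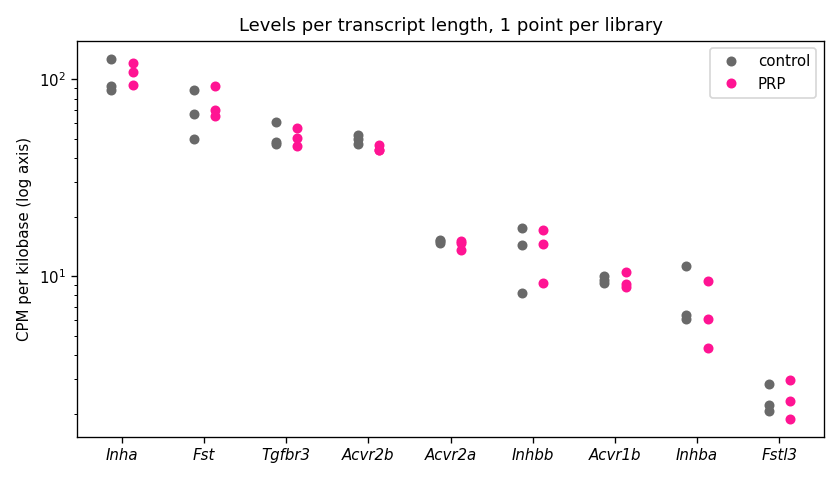
CPM per kilobase of median transcript length (y axis, log scale) for each of the 9 genes, ordered by mean, with 1 point per control (grey) and PRP (pink) library. Inha and Fst stand highest, Inhbb (8.24 to 17.7) spans the values of Acvr2a and Acvr1b, and Fstl3 lies below all others at 1.90 to 2.99.

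The other genes of the pathway were taken as a list of 34, of which 30 were in the table and 28 were tested. None of the 28 passed in the unpaired or the blocked edgeR fit (0% and 0.12% of all genes), 13 lay above 0 and 15 below, and their median log2 fold change was -0.01. At an unadjusted p under 0.05 there was 1 in the unpaired edgeR fit (3.19% of all genes) and 1 in limma-voom (564 of 17475 genes). DESeq2, run without the filter on low counts and so on all 30 genes in the table, had 2 (589 of 27098 genes). The blocked edgeR fit had 5 (11.2% of all genes), with Smad7 and Bambi higher and Skil, Bmpr2 and Smad3 lower.

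Skil encodes SnoN, a repressor of SMAD-driven transcription, and was the listed gene with the smallest adjusted p in the blocked fit. It was at 82.3, 64.9 and 93.5 CPM in CT1, CT2 and CT3 and at 67.1, 56.0 and 71.7 CPM in PRP1, PRP2 and PRP3, lower with PRP in each pair while the groups overlapped. Its log2 fold change was -0.30 ± 0.14 without and -0.30 ± 0.06 with the block (SE), and neither passed (edgeR adjusted p = 0.9998 and 0.0624). Smad7, an inhibitory SMAD that switches off type I receptors, was at 28.2, 24.5 and 31.8 CPM in CT1, CT2 and CT3 and at 38.2, 30.4 and 33.4 CPM in PRP1, PRP2 and PRP3. It was higher with PRP in each pair, with a log2 fold change of 0.27 ± 0.13 (SE). It did not pass with the block either (edgeR adjusted p = 0.226). Of the 28 tested genes of the list, 6 were higher and 5 lower in all 3 pairs. Of all genes, 16.3% were lower in all 3 pairs. Bmpr2, a type II receptor mainly for BMP ligands, was at 273, 230 and 284 CPM in CT1, CT2 and CT3 and at 212, 219 and 247 CPM in PRP1, PRP2 and PRP3. Its groups overlapped, and its log2 fold change was -0.22 ± 0.09 (SE; blocked edgeR adjusted p = 0.153).

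Wfikkn2, a secreted inhibitor of myostatin and GDF11, had 2.20 to 3.40 CPM in control and 2.93 to 4.42 CPM in PRP, with a log2 fold change of 0.47 ± 0.28 (SE; blocked edgeR adjusted p = 0.464). Bambi and Smad3, named after their values were seen, had log2 fold changes of 0.29 ± 0.23 and -0.09 ± 0.06 (SE). Bambi encodes a pseudoreceptor that dampens signalling by type I receptors, and Smad3 an activin-regulated transcription factor.

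**Figure D5:**
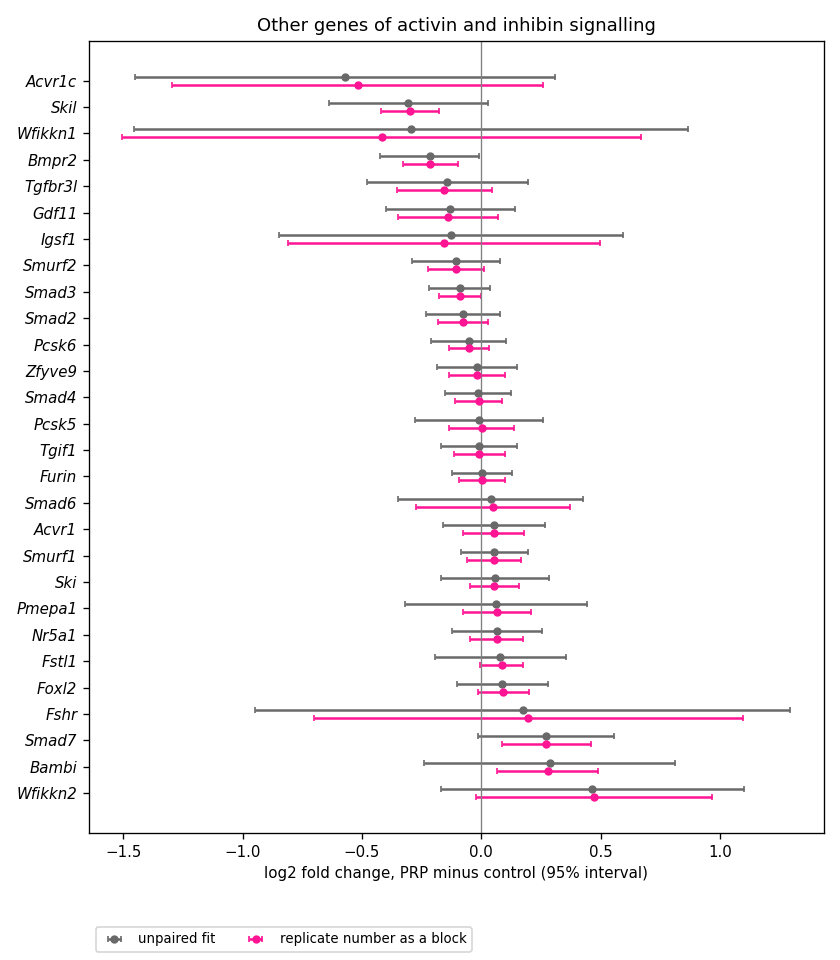
Log2 fold change, PRP minus control, with its 95% interval (x axis) for the 28 tested genes of the pathway list, ordered by the unpaired estimate, from the unpaired fit (grey) and the blocked fit (pink). Blocked intervals of Skil, Bmpr2 and Smad3 lie below 0 and those of Smad7 and Bambi above it, none of the 28 passing over all genes.

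The genes whose pattern over the 6 libraries was most like that of 4 members were found among 10713 other genes with a mean of at least 10 CPM, by the root mean square difference of centred log2 CPM. For Inha, whose own root mean square deviation was 0.21, the nearest were Plxdc2 and Rufy2 (0.04 each). For Inhba (own deviation 0.45) they were Dnah10, Neu3 and Col23a1 (0.10, 0.14 and 0.14), and for Inhbb (0.42) Ltbp2, Cdc25b and Ntrk2 (0.08, 0.09 and 0.10). For Fst (0.30) they were Hapln1, Pon2 and Insyn1 (0.06, 0.07 and 0.07). Ltbp2 stood at 64.9, 32.3 and 70.7 CPM in CT1, CT2 and CT3 and at 76.1, 36.6 and 61.6 CPM in PRP1, PRP2 and PRP3, with the same low libraries numbered 2 as Inhbb.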

How the data were processed

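The deposited table holds the authors' raw counts by gene symbol and Entrez identifier, 1 column per library. The build is named as GRCm38/mm10 in the submitters' processing notes. Which aligner, counting tool, strand setting and annotation were used is not given in the sources used here. The PRP3 column spells its title with letters swapped and was matched because every other title has its own column. The counts were fitted in edgeR 4.0.16 (R 4.3.3; filterByExpr, TMM, robust quasi-likelihood F test, two-sided, Benjamini-Hochberg over 17475 genes at 0.05). CPM uses TMM library sizes, log2 CPM a prior count of 2, and standard errors come from the fold change and its F statistic. Pairs of libraries differed beyond counting noise (chi-square per degree of freedom 8.87 to 32.0), so none was a duplicate.

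Both groups carry numbers 1 to 3. Deviations from the mean of each group had correlations of 0.24, 0.40 and 0.33 for equal numbers and of -0.02 or below otherwise. Because each group was centred, positive values for equal numbers force negative ones elsewhere, so the negative values are no separate evidence. The numbers were taken as pairs, from the data and not a label, and the p-values of the blocked fit rest on these same data. DESeq2 1.42.0, limma-voom (limma 3.58.1), other scaling and filters, the block and leaving out libraries were alternatives. Lengths came from GENCODE, matched by symbol for 9 of 9 members, and spans and start regions from RefSeq by Entrez identifier and symbol, with start regions for 7 of 9. Named genes were the 9 members, the 4 pathway genes with the smallest unpaired p, any that passed, and the 3 nearest patterns of Inha, Inhba, Inhbb and Fst, of which 1 is not reported here. The members, lists and rules were chosen with earlier results of these data known. The procedure was tested on simulated data.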

Additional observations from a re-analysis of the deposited data

How the results depend on the processing

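No alternative brought any of the 9 genes or the 28 tested pathway genes past the threshold. With the replicate block 21 genes passed over the whole table, and 1 to 19 when a replicate number was left out of that fit; limma-voom with the block and the block without robust estimation called 0, and each unpaired fit without 1 library called 0. The 10 alternatives that kept all libraries left the direction of each member unchanged. Leaving out libraries (6 unpaired and 3 blocked fits) did not change the direction of Acvr2a (-0.08 to -0.01) or Acvr2b (-0.19 to -0.12), nor of Skil (-0.44 to -0.18), Bmpr2 (-0.30 to -0.14), Smad3 (-0.12 to -0.056), Smad7 (0.18 to 0.38), Bambi (0.13 to 0.49) or Wfikkn2 (0.29 to 0.70). Without 1 library, the unpaired log2 fold change ran from -0.025 to 0.26 for Inha, -0.61 to 0.088 for Inhba, -0.22 to 0.28 for Inhbb, -0.032 to 0.38 for Fst, -0.16 to 0.17 for Fstl3, -0.11 to 0.025 for Acvr1b and -0.10 to 0.11 for Tgfbr3. With the replicate block, the direction also changed without replicate 1 in Inhbb (-0.067), without replicate 2 in Inhbb (-0.0086) and Fstl3 (-0.25), and without replicate 3 in Fstl3 (-0.017), Acvr1b (0.056) and Tgfbr3 (0.024). These changes of direction were seen in fits on fewer samples, and what brought them about was not tested. With the longest transcript as the length, 6 of 9 members kept their rank, and Fst stood at 1.93 times the summed beta subunit level in control and 2.28 times in PRP, by construction of that length. With 3 libraries a group, the unpaired 95% intervals of Inhba and Inhbb cover more than a 1.5-fold change in either direction. With the block the intervals were -0.47 to -0.08 for Inhba and -0.18 to 0.28 for Inhbb, the pairs being taken from these same data.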
